A study of Mus musculus with 5 samples.

Results

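The genes described here encode 10 neuropeptide precursors of the hippocampus other than the opioids: Npy, Sst, Cck, Vip, Tac1, Tac2, Crh, Nts, Nmb and Cort. They were chosen by gene symbol, and all 10 were found among the 23420 symbols of the series. Their mRNA was measured by RNA-Seq of the dentate gyrus (DG) of wild-type CD1 mice, an outbred strain, given as 4 months of age in the labels. The study, in male mice, asked whether running and running-independent enrichment change DG gene expression in different ways. After 4 weeks of housing, RNA was pooled into 1 library per group. LD mice lived alone with a locked disk, and this library held 8 mice. CE mice shared cages that held a locked disk and tunnels (complex environment), and this library also held 8 mice. RUN mice lived alone with a running disk, and this library held 8 mice. L-RUN and H-RUN were libraries of the 4 RUN mice with the lowest and the 4 with the highest running distances, so they held the same mice as the RUN library.

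Neuropeptides are cut from longer precursors, stored in dense-core vesicles and released upon strong activity to act on G protein-coupled receptors. In the hippocampus, many of them are made by GABAergic interneurons and serve to tell these cells apart. Neuropeptide Y and somatostatin are the peptides of dendrite-targeting interneurons of the dentate hilus, cholecystokinin and vasoactive intestinal peptide mark other interneuron classes, and the tachykinins, corticotropin-releasing hormone, neurotensin, neuromedin B and cortistatin are made by smaller sets of cells. Npy and Sst are also classical targets of neuronal activity, and the Sst promoter is the textbook example of a cAMP response element, the site bound by the factor CREB.

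The promoters of Sst, Npy and Tac1 are shown because these were the members whose values differed most among the libraries. The windows hold the 250 bases before the transcription start (RefSeq, GRCm38.p6), and capitals mark the letters TGACGTCA, the full cAMP response element, or TGACG, a shorter form of it, on either strand. A window was at hand for 9 of the 10 members, Crh being the other one. The start used for Sst and Tac1 lies inside the gene as GENCODE draws it, so other starts are possible.
Sst promoter (chr16:23890845-23891094, minus strand): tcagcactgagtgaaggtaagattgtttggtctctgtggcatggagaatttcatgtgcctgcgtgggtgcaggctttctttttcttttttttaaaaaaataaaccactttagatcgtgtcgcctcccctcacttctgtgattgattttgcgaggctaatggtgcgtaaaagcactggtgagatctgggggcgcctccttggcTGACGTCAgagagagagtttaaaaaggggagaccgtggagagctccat
Npy promoter (chr6:49822460-49822709, plus strand): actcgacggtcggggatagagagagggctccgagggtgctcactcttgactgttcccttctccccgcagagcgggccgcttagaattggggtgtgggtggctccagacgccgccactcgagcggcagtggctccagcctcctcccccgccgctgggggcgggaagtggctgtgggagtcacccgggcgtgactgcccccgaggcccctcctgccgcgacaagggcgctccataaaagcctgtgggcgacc
Tac1 promoter (chr6:7554811-7555060, plus strand): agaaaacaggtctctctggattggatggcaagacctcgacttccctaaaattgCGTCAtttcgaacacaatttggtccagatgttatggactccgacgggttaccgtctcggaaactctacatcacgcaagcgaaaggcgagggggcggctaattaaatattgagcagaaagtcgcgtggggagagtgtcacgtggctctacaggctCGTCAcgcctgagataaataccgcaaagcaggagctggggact

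The Sst window held 1 full element, whose first letter lies 48 bases before the start, and no other member's window did. Of all 32851 promoter windows, 1.55% held the full element, and of the windows of genes with a mean value of at least 5, 2.49% did. The shorter form, which the full element also contains, was present in 6 of the 9 members (Sst, Tac1, Cck, Vip, Cort and Nts), against 17.8% of all windows and 25.8% of the windows of these expressed genes. Nts has a mean below 5 and is not among these expressed genes. The Tac1 window held 2 matches to the shorter form, at 43 and 197 bases before the start. The Npy window held neither, which says only that these letters are not in these 250 bases. A match is a run of letters and not a shown binding site.

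For each gene and library, the authors deposited a regularized log value, a log2 measure of the read count in which the spread of each gene between libraries is shrunk towards its mean. With 1 library per group, no test between groups can be made and no difference here has a replicate check: housing and library cannot be told apart. A gene was called higher or lower at a difference of at least 0.3, the size used in the study, which is 1.23-fold. Calls were counted among the 13550 genes with a mean of at least 5 over the 5 libraries, and 9 of the 10 members passed this minimum. Nts did not. The only measure of error came from the RUN library, set against a computed mix of the libraries of low and high runners in equal parts. From it a technical SD of a difference between 2 libraries was taken for each gene, which lay between 0.025 and 0.048 for these 9 members and does not cover differences between mice. Prox1, the transcription factor that defines granule cells, was at 11.6 to 12.0 in all 5 libraries, and none of 8 granule cell markers was below the minimum, so the markers of the labelled tissue were present. In pooled bulk RNA, a change in the number of cells of a type and a change in RNA per cell cannot be told apart.

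Across the 10 members, Npy, Sst and Tac1 had a range over the 5 libraries of at least 0.3, and the other 7 did not. Among all genes with a mean of at least 5, 5.12% had such a range. L-RUN held the highest value of 4 members (Npy, Tac1, Tac2 and Nmb), CE that of another 4 (Sst, Cck, Crh and Cort) and LD that of 2 (Vip and Nts). The highest library stood more than 2 technical SDs above the next for Npy, Tac1, Cck and Cort alone. H-RUN held the lowest value of 5 members, namely Npy, Vip, Tac1, Nts and Cort, in each case by less than 2 technical SDs from the next library. Without the L-RUN library, Sst was the 1 member that kept such a range.

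**Figure D1:**
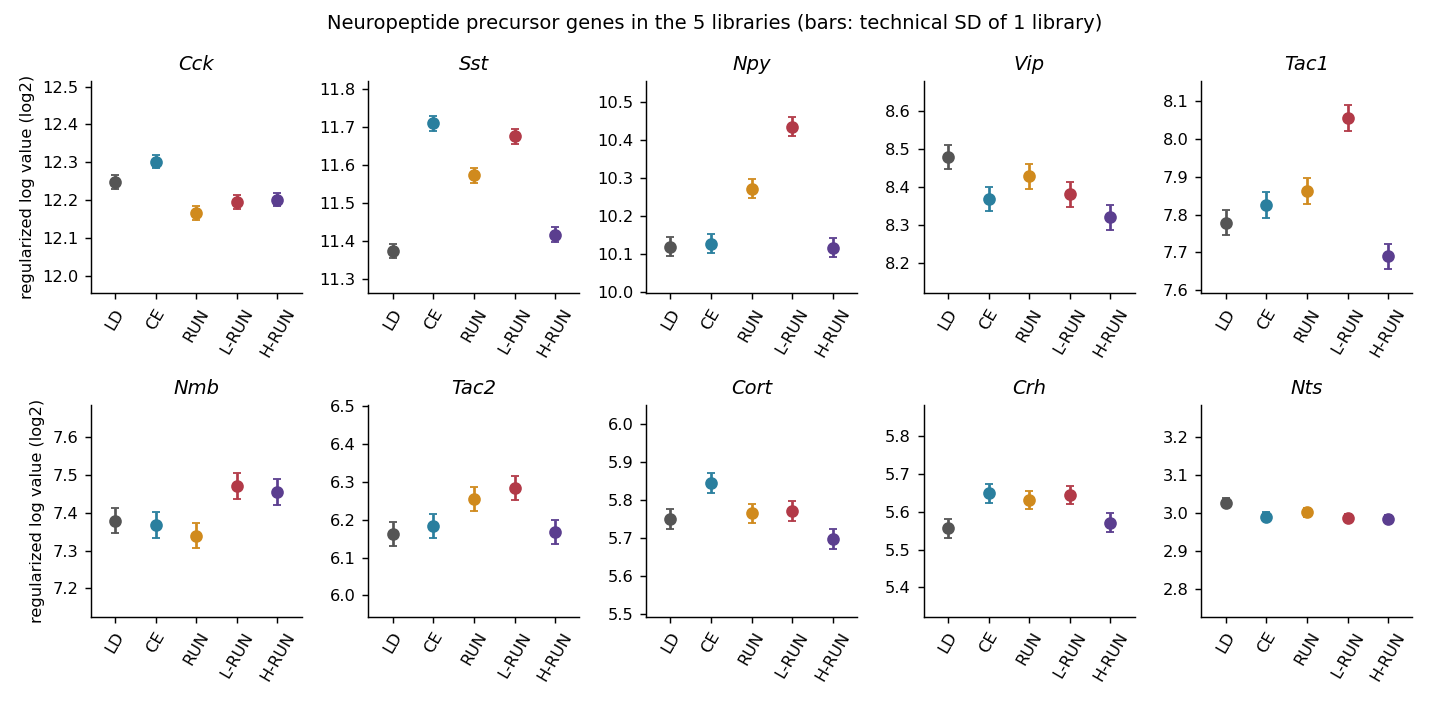
Regularized log values (log2) of the 10 genes in each library, ordered by mean level, with bars of 1 technical SD of a single library and the same span on every y axis. L-RUN stands above the other libraries for Npy (10.44) and Tac1 (8.05), CE and L-RUN stand together above LD for Sst, and the other genes span at most 0.16.

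Sst, the precursor of somatostatin, was higher in CE and in L-RUN than in LD. The gene has 2 exons on the minus strand of chromosome 16 (23889573 to 23890958, GRCm38). Its regularized log value was 11.37 in LD, 11.42 in H-RUN, 11.57 in RUN, 11.68 in L-RUN and 11.71 in CE. LD and H-RUN were thus the low libraries and differed by 1.57 technical SDs, while CE and L-RUN were the high ones and differed by 1.25. Against LD, Sst differed by 0.34 in CE (1.26-fold, technical SD 0.027), by 0.30 in L-RUN (1.23-fold), by 0.20 in RUN and by 0.04 in H-RUN. Of the members, Sst was the 1 called in CE, where 0.598% of all genes were called and 0.332% were called higher. In that comparison Sst ranked at 32 from the top of 13550 genes, and 0.266% of all genes were called lower. With the trend on transcript length described further on removed, 0.29 remained in CE and 0.18 in L-RUN.

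Npy, the precursor of neuropeptide Y, which dampens excitation in the hippocampus, was higher in L-RUN and close to LD in CE and H-RUN. It has 4 exons on the plus strand of chromosome 6 (49822710 to 49829507). Its values were 10.12 in LD, 10.12 in H-RUN, 10.27 in RUN, 10.44 in L-RUN and 10.13 in CE. LD, CE and H-RUN lay within 0.01 of each other, less than the technical SD of 0.035. RUN stood above CE by 0.15 and L-RUN above RUN by 0.16. The difference between L-RUN and LD was 0.32 (1.25-fold), at rank 90 from the top of 13550 genes. Npy and Sst were the 2 members called in L-RUN, both higher, against 3.13% of all genes called, 0.797% higher and 2.33% lower. The summed level of 16 leptomeningeal markers was also highest in L-RUN, at 1.49 times that of LD, and Npy mRNA is among the shortest, with 0.18 of the 0.32 remaining after the trend on length was removed. The part of either in the result was not tested. The L-RUN value also exceeded that of CE by 0.31, the 1 call of a member in that comparison, where 1.89% of all genes were called, 0.509% higher and 1.38% lower.

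Cort encodes cortistatin, a relative of somatostatin that acts on the same receptors. It lies on chromosome 4 (149125034 to 149126763, minus strand). Its values were 5.75 in LD, 5.70 in H-RUN, 5.76 in RUN, 5.77 in L-RUN and 5.84 in CE, and no difference from LD was called. CE was the highest library, 0.09 above LD with a technical SD of 0.036. CE was also the highest library for Sst, but for Cort the gap between L-RUN and LD was 0.02 and so within the technical SD.

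Cck, the precursor of cholecystokinin, was the most abundant member on either scale used and differed little between libraries. It lies on chromosome 9 (121489824 to 121495694, minus strand). Its values were 12.25 in LD, 12.20 in H-RUN, 12.17 in RUN, 12.19 in L-RUN and 12.30 in CE. The 3 running libraries were the lowest, with differences from LD between -0.08 and -0.05 (technical SD 0.025), and CE was the highest. None of these differences was called.

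Vip, whose peptide marks interneurons that inhibit other interneurons, was highest in LD. It lies on chromosome 10 (5639218 to 5647617, plus strand). Its values were 8.48 in LD, 8.32 in H-RUN, 8.43 in RUN, 8.38 in L-RUN and 8.37 in CE. The largest difference from LD was -0.16 in H-RUN (technical SD 0.046), followed by -0.11 in CE, and neither was called. Each library differed from its neighbour in the order of levels by less than 2 technical SDs.

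Crh encodes corticotropin-releasing hormone, the peptide that starts the endocrine stress response and that hippocampal interneurons also make. It lies on chromosome 3 (19693401 to 19695396, minus strand). Its values ran from 5.56 in LD and 5.57 in H-RUN to 5.63 in RUN, 5.64 in L-RUN and 5.65 in CE. Each library differed from the next in this order by less than 2 technical SDs. The difference from LD was at most 0.09 (technical SD 0.034), no call was made, and the difference in L-RUN was 0.01 with the length trend removed.

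Tac1, the precursor of substance P and neurokinin A, was high in L-RUN and low in H-RUN. It lies on chromosome 6 (7554879 to 7565834, plus strand). Its values were 7.78 in LD, 7.69 in H-RUN, 7.86 in RUN, 8.05 in L-RUN and 7.83 in CE. L-RUN stood 0.19 above the next library, while the neighbours among the other 4 differed by less than 2 technical SDs each. The difference from LD was 0.28 in L-RUN (1.21-fold, technical SD 0.048), just short of the call and at 0.20 with the length trend removed, and -0.09 in H-RUN. H-RUN lay 0.36 below L-RUN (0.777-fold), the largest difference of any member in the 8 comparisons.

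Tac2, the precursor of the tachykinin neurokinin B, differed little between libraries. It lies on chromosome 10 (127724478 to 127731768, plus strand). Its values were 6.16 in LD, 6.17 in H-RUN, 6.25 in RUN, 6.28 in L-RUN and 6.18 in CE. L-RUN exceeded LD by 0.12 (technical SD 0.044), without a call, and by 0.01 with the length trend removed. Neighbours in the order of levels were all within 2 technical SDs.

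Nmb encodes neuromedin B, a bombesin-like peptide, on chromosome 7 (80902227 to 80905076, minus strand). Its values were 7.38 in LD, 7.45 in H-RUN, 7.34 in RUN, 7.47 in L-RUN and 7.37 in CE. The high libraries were L-RUN and H-RUN, whereas RUN, which holds the same mice, was the lowest. RUN lay 0.12 below the computed mix of these libraries, and Nmb was the 1 member for which this residual passed 2 of its technical SDs. The differences of Nmb from LD, all within 0.09, were smaller than this disagreement between libraries of the same mice.

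Nts, the precursor of neurotensin, lies on chromosome 10 (102481756 to 102490486, minus strand). Its values lay between 2.98 in H-RUN and 3.03 in LD. At this level the regularized log shrinks differences strongly, so that little could be seen of any change in Nts.

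**Figure D2:**
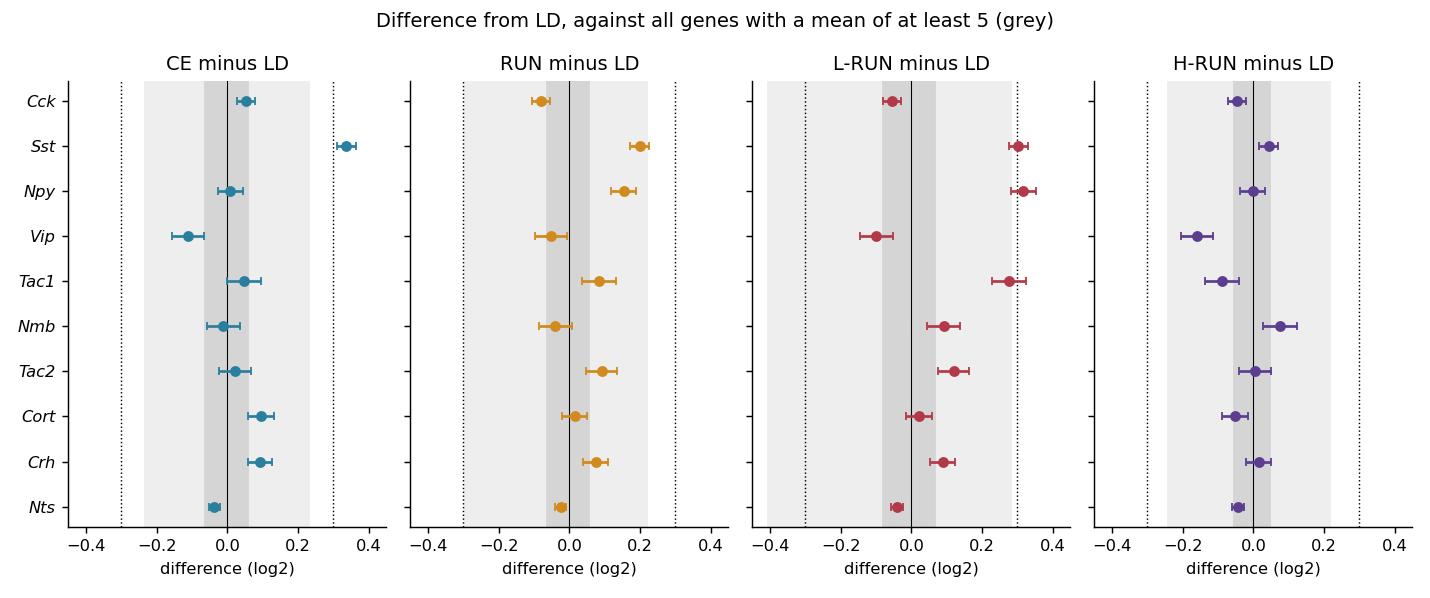
Difference from LD (log2) of each gene in CE, RUN, L-RUN and H-RUN, with bars of 1 technical SD of a difference. Dark and light grey hold the middle 50% and 98% of the 13550 genes with a mean of at least 5, and dotted lines mark 0.3. Sst in CE (0.34) and Npy and Sst in L-RUN (0.32 and 0.30) lie past the dotted line.

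In RUN, no member was called, against 1.31% of all genes (0.362% higher and 0.952% lower), and Sst (0.20) and Npy (0.15) had the largest differences from LD. In H-RUN, no member was called either, against 0.827% of all genes (0.354% higher and 0.472% lower), and the differences of 8 of the 9 members were within 2 technical SDs. Vip was the exception. The median difference over the 9 members was 0.05 in CE, -0.002 in H-RUN, 0.07 in RUN and 0.09 in L-RUN, while that over all 13550 genes lay between -0.004 and -0.001 in these comparisons. With the length trend described in a later paragraph removed, the members' median was 0.01 in both CE and L-RUN, 0.009 in RUN and -0.06 in H-RUN. All 4 comparisons share the LD library.

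The libraries of low and high runners differed directly in 2 members. Tac1 was 0.36 lower and Npy 0.32 lower in H-RUN than in L-RUN, where 1.54% of all genes were called, 0.974% higher and 0.561% lower. Sst differed by -0.26 in the same comparison, below the call size. Of the 9 members, 3 differed by less than 2 technical SDs between these libraries. The median over the 9 was -0.07, and -0.04 with the length trend removed. Against CE, no member was called in RUN, where 0.834% of all genes were (0.295% higher and 0.539% lower). None was called in H-RUN either, where 1.06% were (0.354% higher and 0.708% lower). The difference of Sst between H-RUN and CE, at -0.29, fell just outside the call size, and the Sst value of L-RUN against LD, at 0.30, just inside it.

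The RUN library gave a second reading of the same mice. For Npy, Sst, Tac1, Tac2, Crh and Cort, the RUN value fell between those of L-RUN and H-RUN, and for the other 4 members it did not. The RUN value of Npy was 0.01 below that of the computed mixture, that of Sst 0.02 above and that of Tac1 0.02 below. For all members but Nmb, the residual was within 2 of its technical SDs. This compares libraries of the same mice and says nothing of the spread between mice.

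**Figure D3:**
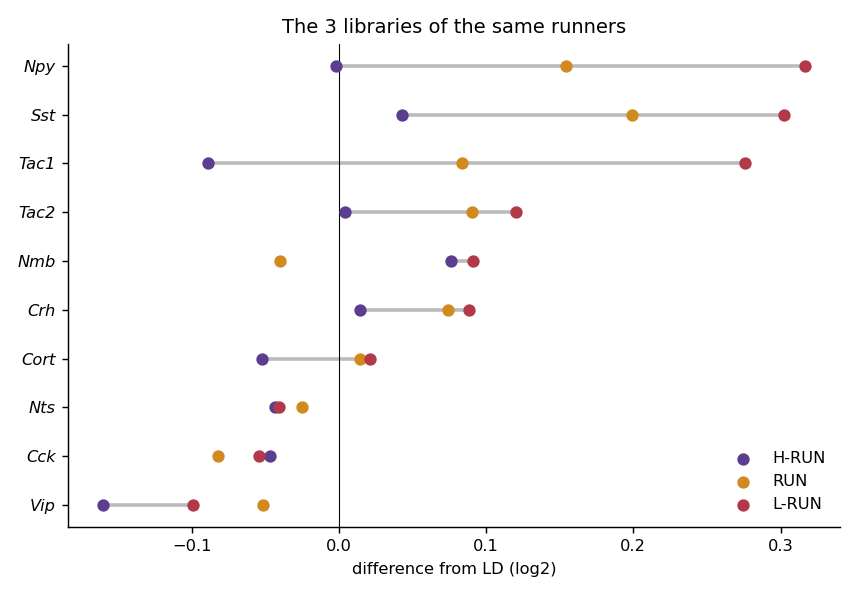
Difference from LD (log2) in H-RUN, RUN and L-RUN, joined by a line between H-RUN and L-RUN, for each gene. RUN lies between the other 2 for Npy, Sst, Tac1, Tac2, Crh and Cort, and L-RUN lies farthest to the right for Npy (0.32), Sst (0.30) and Tac1 (0.28).

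These genes have short mRNAs, and differences between the libraries moved with transcript length. The longest transcript was 566 bases for Npy, 721 for Sst, 1230 for Tac1 and 1530 for Vip, the longest of the 10. The median was 825.5 bases for the members and 3280 for all genes with a mean of at least 5. In L-RUN minus LD, the median difference was 0.07 over the 3192 genes with the shortest transcripts (up to 2117 bases) and -0.09 over the 3189 with the longest (from 4805 bases). In CE minus LD, these medians were 0.04 and -0.05. At the length of Npy, the trend over all genes was 0.14 in L-RUN minus LD, which leaves 0.18 of its difference of 0.32. For Sst, the trend leaves 0.18 in L-RUN and 0.29 in CE. With the trend removed, no member was called against LD in any group. Tac1 was still 0.32 lower in H-RUN than in L-RUN, and Npy was 0.25 lower. The part of transcript length in these differences was not tested.

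**Figure D4:**
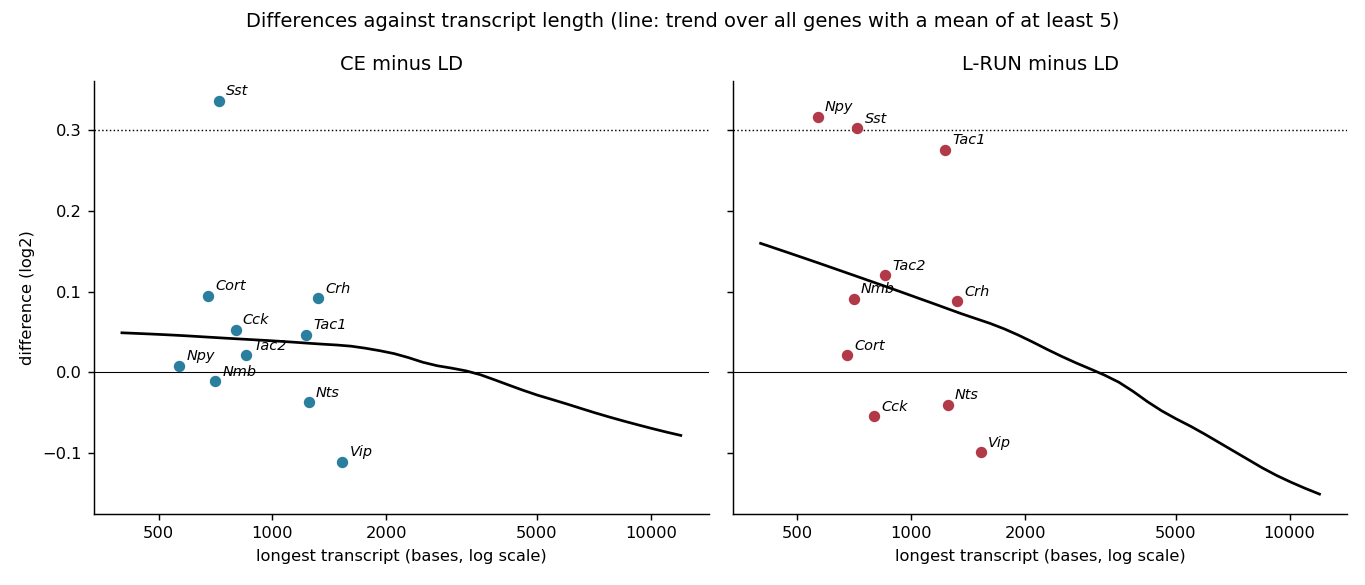
Difference from LD (log2) against the longest transcript (bases, log axis) in CE and L-RUN. Points are the 10 genes, the line is the trend over all genes with a mean of at least 5, and the dotted line marks 0.3. In L-RUN, Npy, Sst and Tac1 lie above the trend and Vip, Nts, Cck, Cort and Nmb below it.

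Levels can be compared between genes only per length of transcript. On the scale of the mean regularized log value minus log2 of the transcript length in kb, Cck was at 12.55, Sst at 12.02 and Npy at 11.04. Nmb (7.91), Vip (7.78) and Tac1 (7.54) followed, then Tac2 (6.44), Cort (6.33), Crh (5.21) and Nts (2.68). The same 3 genes led without the correction for length, and Nmb moved from place 6 to place 4.

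The receptors of these peptides stayed within the call size of LD. Of the 23 receptor genes listed, 22 were found and 16 passed the minimum, and none was called in any group against LD. Of all genes, 0.598% in CE to 3.13% in L-RUN were called against LD, so 0 of 16 does not set the receptors apart. Their differences from LD in CE ran from -0.09 to 0.24, with a median of 0.07. The highest was Sstr3 (0.24), a somatostatin receptor of neuronal cilia, which was -0.13 in L-RUN. Against CE it was called lower in both L-RUN (-0.37) and H-RUN (-0.32), beside 1.38% and 0.708% of all genes. Both comparisons share the CE library. Ntsr2, a neurotensin receptor of astrocytes, was between 0.13 and 0.22 in the 4 groups. Npy1r, the main postsynaptic receptor of neuropeptide Y, differed from LD by at most 0.12.

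The genes for making and breaking down peptides stayed within the call size of LD too, beside the same shares of all genes. Among 17 genes of precursor processing and dense-core vesicles, all passed the minimum and 0 were called against LD. Their highest difference in L-RUN was 0.27, that of Pcsk1n, an inhibitor of prohormone convertase 1, and their median was -0.08. Against CE, however, Pcsk1, prohormone convertase 1 itself, was called lower in RUN (-0.32), L-RUN (-0.38) and H-RUN (-0.31). The shares of all genes called lower there were 0.539%, 1.38% and 0.708%. Chgb, a granin of the dense core, was called higher than in CE in RUN (0.34) and H-RUN (0.41), beside 0.295% and 0.354% of all genes. All these comparisons share the CE library, and the running libraries share mice. Of 11 genes for peptidases and the CRH-binding protein, 10 passed and 0 were called, with differences in L-RUN between -0.28 and 0.17. Among 41 other peptide precursors, 39 were found and 9 passed. Grp, the precursor of gastrin-releasing peptide, was the 1 called against LD, 0.34 higher in L-RUN (technical SD 0.041), whereas its difference was 0.24 in RUN, 0.16 in H-RUN and 0.08 in CE. The median of these 9 precursors in L-RUN was 0.11, and 0.04 with the length trend removed.

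Among general markers of GABAergic interneurons, none was called higher in any group against LD. The share of all genes called higher against LD was 0.332% in CE to 0.797% in L-RUN, so this does not set the markers apart. All 19 of the 20 listed genes that were found passed the minimum, and their median difference from LD was 0.07 in CE and -0.04 in L-RUN. Gad1, which makes GABA, differed from LD by 0.03 in L-RUN and 0.01 in CE (technical SD 0.022). The vesicular GABA transporter Slc32a1 differed by -0.03 in L-RUN and 0.11 in CE. Lhx6, the transcription factor of interneurons from the medial ganglionic eminence, which include somatostatin cells, was 0.24 higher than LD in CE and 0.15 in L-RUN, short of the call. The 1 gene called against LD was Nos1, neuronal nitric oxide synthase, found in many Npy interneurons. It was lower in RUN (-0.58), L-RUN (-0.74) and H-RUN (-0.45), a direction opposite to that of Npy in RUN and L-RUN. The shares of all genes called lower in these libraries were 0.952%, 2.33% and 0.472%.

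Markers of other tissue moved in some libraries. Of 14 leptomeningeal markers that passed, 10 were called higher in L-RUN, 7 in RUN, 3 in CE and 0 in H-RUN, where 2 were called lower. The share of all genes called higher was 0.797% in L-RUN, 0.362% in RUN, 0.332% in CE and 0.354% in H-RUN. In H-RUN, 0.472% of all genes were called lower. The summed linear level of all 16 such markers was 1.49 times that of LD in L-RUN, 1.17 in RUN, 1.11 in CE and 0.889 in H-RUN, and none of them was at 0. Igf2, a growth factor made by the meninges, was 2.14-fold higher in L-RUN than in LD, followed by Fmod (2.02-fold), Slc13a4 (1.77-fold) and Aldh1a2 (1.69-fold). The markers did not all move alike: Dcn, a proteoglycan of connective tissue, was called higher in CE (0.37) and lower in H-RUN (-0.52), and Ogn was called lower in H-RUN (-0.68). Of 11 markers of CA1 and CA3 pyramidal cells, 4 were called lower in L-RUN (Fibcd1, Pou3f1, Wfs1 and Mpped1) and 0 higher. Of all genes, 2.33% were called lower and 0.797% higher there. The summed level of the 11 was 0.843 times that of LD in L-RUN, where 2 of them lay above LD. These markers did not move alike either: Fibcd1 was called higher in CE (0.31) and lower in RUN (-0.46) and H-RUN (-0.52). Bok was called higher in H-RUN (0.41). Of 8 granule cell markers, C1ql2 was called higher in RUN (0.37), L-RUN (0.37) and H-RUN (0.40). Plk5 was called higher and Prox1 lower in L-RUN. The list as a whole did not follow C1ql2: the median of the 8 was negative against LD in every group (CE -0.12, L-RUN -0.07, RUN -0.05, H-RUN -0.04). In each group, 3 or 4 of the 8 lay above LD. Their summed level ranged from 0.922 (CE) to 0.977 (H-RUN) times that of LD. Of 7 mossy cell markers, Sv2c was called lower in L-RUN (-0.47), whereas 4 lay above LD there. The median difference of the 7 in L-RUN was 0.04, and their summed level was 1.09 times that of LD. Among the choroid plexus markers, Ttr was 0.62 higher in CE, while 6 of the 8 were below the minimum. Kl, which also passed it, differed from LD by 0.03 in CE (technical SD 0.043). The part of these tissues in the values of the neuropeptide genes was not tested.

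The genes with the most similar values over the 5 libraries were taken from the 693 other genes with a range of at least 0.3. Likeness was the root mean square difference of the 5 values after each gene was centred on its own mean. Slc47a1, an organic cation exporter, was closest to Npy (0.013), followed by Slc6a20a (0.021), an amino acid transporter on the leptomeningeal list, and Foxc1 (0.022), a transcription factor of meningeal development. Crocc, which encodes the ciliary rootlet protein rootletin, was closest to Sst (0.021), followed by Resp18 (0.032), a protein of secretory granules, and Wnt4 (0.034). Cd24a (0.014), Bmp7 (0.017) and Shkbp1 (0.026) were closest to Tac1. These are patterns over 5 libraries, of which 3 share mice, and describe likeness alone.

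**Figure D5:**
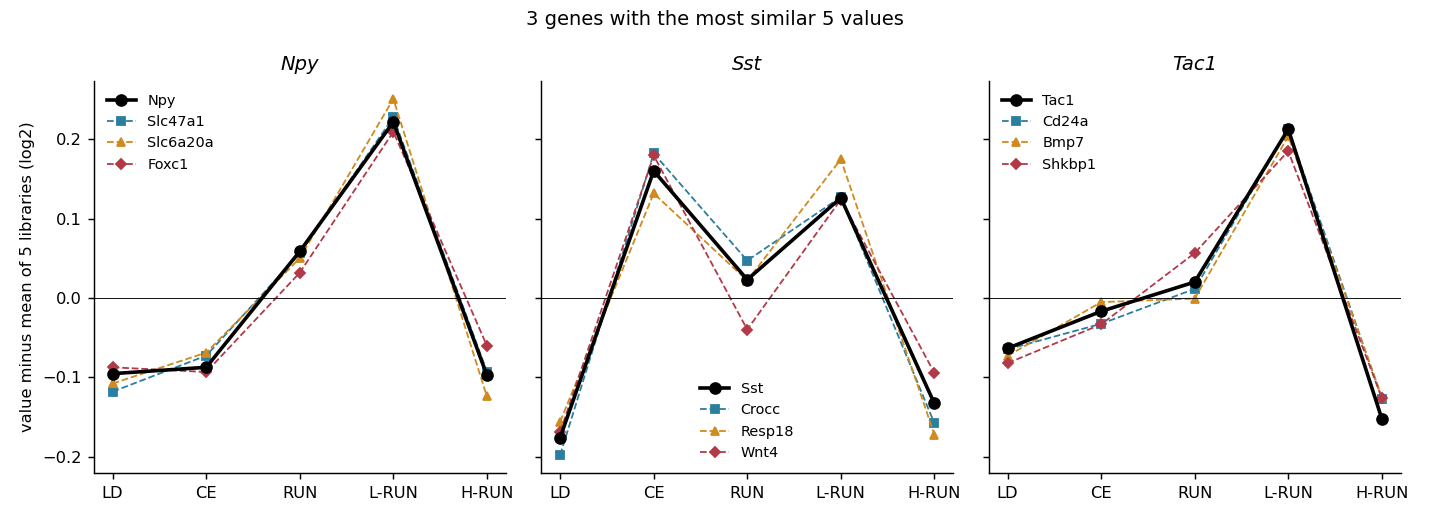
Values of Npy, Sst and Tac1 (black) and of the 3 genes most similar to each (dashed), as log2 differences from each gene's mean over the 5 libraries. Npy and Tac1 and their closest genes peak in L-RUN, while Sst and its closest genes are high in CE and L-RUN and low in LD and H-RUN.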

How the data were processed

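RNA-Seq of pooled DG RNA gave 1 library per group, as described above. Per the labels and methods, the authors mapped trimmed reads to mm10 with TopHat2 2.0.10, took gene counts (RefSeq) from HTSeq, and extracted regularized log values with DESeq2 1.10.1. These log2 values, normalized over all 5 libraries by the authors and shrunk towards each gene's mean, were used as deposited. Depth is unknown, so no counting error can be given, and no model of counts was fitted. Groups came from sample titles, and pool sizes from the methods.

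Differences between libraries were taken without a test in 8 comparisons. The technical SD of a gene came from the median absolute deviation of RUN minus the log2 of the averaged linear values from low and high runners, over the 500 genes nearest in mean. It takes the libraries as equally noisy. Lengths, exons and positions are from GENCODE M21 (GRCm38, the build called mm10), matched by symbol for 94.2% of genes with a mean of at least 5. The length trend was a lowess curve (fraction 0.3). Scripts were tested on simulated data and used matplotlib 3.10.9, statsmodels 0.14.6, pandas 2.3.3, numpy 2.4.6, scipy 1.17.1 and python 3.11.15.

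The members and lists were chosen with earlier results of these data known. Named were all members, up to 4 genes per list with the largest difference from LD of at least 0.3, and the 3 genes most similar to each member with a range of at least 0.3, and the longest and shortest members. Receptors, Pcsk1, Chgb, Pcsk1n, Dcn, Ogn, Gad1, Slc32a1, Lhx6, Mpped1 and Kl were named in addition, after their values were seen.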

Additional observations from a re-analysis of the deposited data

How the results depend on the processing

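Of 66 counts and error values recomputed under an alternative, 50 stayed within 1.5 times the reported one. Counts of 0 that stayed at 0 are among the 50. The reported count was 0 in RUN minus LD, H-RUN minus LD, RUN minus CE and H-RUN minus CE. A minimum mean of 7, or no minimum, could not change a count of calls. The called members Npy, Sst and Tac1 had means above 7, and Nts had a range of 0.04. At a call size of 0.4, 0 members were called in CE minus LD, L-RUN minus LD, H-RUN minus L-RUN and L-RUN minus CE, and 0 had such a range. At 0.2, 2 were called in L-RUN minus CE and 1 in H-RUN minus CE. The share of all genes was taken at 0.3 alone, so the counts at 0.4 and 0.2 have no background beside them. Quantile normalization gave 1 in H-RUN minus CE, namely Sst at -0.30. Removal of the length trend gave 0 in CE minus LD, L-RUN minus LD and L-RUN minus CE, and 1 each in H-RUN minus L-RUN (Tac1) and H-RUN minus CE (Sst, at -0.30). When LD and CE were averaged as the baseline, 1 member, Npy at 0.31, was called in L-RUN, and Sst was at 0.13. With the L-RUN library left out, and with both L-RUN and RUN left out, 1 member had a range of at least 0.3 in each case, settings chosen after seeing the data. No called difference changed sign under the alternatives. Removal of the length trend moved 55 of 80 single differences by at least the technical SD, and centring on the median moved 0. No paired analysis was possible because each group has 1 library.

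Npy kept its call in L-RUN minus LD under centring, quantile normalization and the averaged baseline, and lost it with the length trend removed or at a call size of 0.4. Differences between mice within a group, the depth of the libraries and the shrinkage of low values such as those of Nts limit what can be read from these data.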
